A study of Mus musculus with 3 samples.

Results

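The Wnt ligands, their Frizzled, Ror and Lrp receptors and their secreted antagonists were followed by 40 probes of a mouse oligonucleotide array that carried 23473 probes in all, 18555 of them with a gene name. The members were every probe whose name began with Wnt, Fzd, Sfrp or Dkk followed by a number, or was Ror1, Ror2, Lrp5 or Lrp6. They comprised 19 ligands, 9 Frizzled receptors, 4 co-receptors of the Ror and Lrp families and 8 antagonists, with a single probe for each gene. The study asked how mouse C2C12 cells, a line of myoblasts that fuse into myotubes when serum is withdrawn, change when they leave proliferation and when they carry extra Wnt4. Parental C2C12 cells in differentiation medium (C2C12-DF) were kept for 2 days in DMEM with 2% horse serum. The Wnt4-overexpressing subline W4-08 (C2C12-W4-08) was kept for 2 days in proliferation medium, DMEM with 10% fetal bovine serum, and so were parental cells (C2C12-PR), the control of both comparisons. W4-08 was a single clone that carried a plasmid with V5-tagged Wnt4 cDNA under the CMV promoter and had passed through blasticidin selection. The parental cells had received neither plasmid nor drug, so clone, selection and Wnt4 cannot be told apart.

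Each condition was measured on 1 array. No difference below has a replicate check, no p-value is given, and a change of at least 2-fold is a mark of size. Signals are spot brightness minus the mean of 1750 blank spots, scaled so that probes detected on both arrays of a comparison had a median ratio to C2C12-PR of 1, with the median detected probe of C2C12-PR at 25. A probe counted as detected when its spot exceeded the blank mean by 2 SD, which put the lowest detected signal at 2.35 on the C2C12-DF array, 0.697 on the C2C12-W4-08 array and 2.72 on the C2C12-PR array. Where a probe was detected on 1 array of a pair, the ratio is a bound, set against the lowest detected signal of the other array.

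Wnts are lipid-modified secreted proteins that bind Frizzled receptors through their cysteine-rich domain. With Lrp5 or Lrp6 beside Frizzled, the signal stabilises β-catenin, which acts with TCF/LEF factors in the nucleus, whereas Ror1 and Ror2 take part in routes that do not need β-catenin. Sfrp proteins bind Wnts outside the cell, and Dkk1 blocks Lrp5 and Lrp6. In muscle, Wnts act in the embryonic induction of myogenic cells and in the differentiation of satellite cells during repair.

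The regions upstream of Wnt4, Fzd1 and Ror1 are shown because Wnt4 is the overexpressed gene and because Fzd1 and Ror1 were at least 2-fold away from C2C12-PR in both other conditions. The Wnt4 window is that of the resident gene, as the plasmid's Wnt4 cDNA was under the CMV promoter. Each run gives the 250 bases before the RefSeq start of transcription in GRCm38.p6, read 5' to 3' on the gene's own strand, at chr4:137277385-137277634 (plus strand) for Wnt4, chr5:4758217-4758466 (minus strand) for Fzd1 and chr4:100095541-100095790 (plus strand) for Ror1. Capitals mark E-boxes (CANNTG, the motif bound by MyoD and other basic helix-loop-helix factors) and the core of the TCF/LEF motif (CTTTG, or CAAAG when it lies on the opposite strand).
Wnt4: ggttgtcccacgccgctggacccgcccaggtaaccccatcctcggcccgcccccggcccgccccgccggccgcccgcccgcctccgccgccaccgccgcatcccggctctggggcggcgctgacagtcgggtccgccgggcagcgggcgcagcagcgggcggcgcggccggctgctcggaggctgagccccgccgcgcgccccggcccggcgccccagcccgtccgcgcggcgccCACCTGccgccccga
Fzd1: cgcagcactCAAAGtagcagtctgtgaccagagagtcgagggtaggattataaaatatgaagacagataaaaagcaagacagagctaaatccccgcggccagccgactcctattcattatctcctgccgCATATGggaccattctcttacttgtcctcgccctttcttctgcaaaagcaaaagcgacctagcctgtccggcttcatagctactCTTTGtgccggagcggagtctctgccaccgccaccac
Ror1: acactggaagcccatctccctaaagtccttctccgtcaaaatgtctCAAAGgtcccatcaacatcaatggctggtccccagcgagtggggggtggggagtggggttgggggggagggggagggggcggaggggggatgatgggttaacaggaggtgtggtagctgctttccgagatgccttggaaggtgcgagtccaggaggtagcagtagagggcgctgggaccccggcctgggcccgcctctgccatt
The Wnt4 window held 1 E-box, which began 15 bases before the start, and no TCF/LEF core. The Fzd1 window held 1 E-box 121 bases before the start and TCF/LEF cores 241 and 37 bases before it, and the Ror1 window held no E-box and 1 TCF/LEF core 204 bases before the start. RefSeq promoters were matched for 26 of the 40 members, with 29 windows. An E-box stood in 17 of these (58.6%), against 66.2% of all 32851 windows of this length, and a TCF/LEF core in 13 (44.8%), against 48.6%. A GC box (GGGCGG on either strand) stood in 21 windows of members (72.4%), against 32.7% of all windows. Motif matches describe these letters and show no binding.

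The arrays differed in reach. The blank spots averaged 17.9 ± 2.16 scanner units on the C2C12-DF array, 4.38 ± 0.803 on the C2C12-W4-08 array and 20.4 ± 2.95 on the C2C12-PR array (SD over spots). Detection reached 74.4% of all probes in C2C12-DF, 92.8% in C2C12-W4-08 and 71.8% in C2C12-PR. By the order numbers of the study, both parental arrays shared a number and the array of the subline had another, and order and subline cannot be told apart. Of 7 myoblast markers, all were detected on each array, with summed signals of 4839 in C2C12-DF, 1477 in C2C12-W4-08 and 3137 in C2C12-PR. The 9 markers of differentiated muscle summed to 15383 in C2C12-DF, 361 in C2C12-W4-08 and 325 in C2C12-PR, where Ckm and Myh3 were not detected. Immune cell markers were detected for 2 of 5 genes in C2C12-DF, 5 of 5 in C2C12-W4-08 and 2 of 5 in C2C12-PR, with summed signals of 22.1 in C2C12-DF, 96.1 in C2C12-W4-08 and 24 in C2C12-PR. Of the adipocyte markers 2, 4 and 2 of 5 were detected in C2C12-DF, C2C12-W4-08 and C2C12-PR (summed signals 17.9, 36.4 and 19.9), of the osteoblast markers 1, 2 and 1 of 3 (3.72, 8.72 and 4.79), of the endothelial markers 1, 2 and 0 of 4 (5.09, 10.4 and 0) and of the neural markers 2, 3 and 1 of 3 (182, 31.4 and 268). Adipoq, Ibsp, Pecam1 and Tek were detected on none of the arrays. The sums cover detected probes only, and the lowest detected signal was 0.697 in C2C12-W4-08, against 2.35 in C2C12-DF and 2.72 in C2C12-PR. These counts and sums are therefore not like for like between arrays. The part of these genes in the results was not tested, and in RNA from a whole culture fewer cells of a type and less RNA per cell cannot be told apart.

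The members lay near the blanks. Detection reached 31 of 40 members (77.5%) in C2C12-DF, 38 (95%) in C2C12-W4-08 and 29 (72.5%) in C2C12-PR, shares close to those of all probes. The detected members had a median signal of 6.46 in C2C12-DF, 6.30 in C2C12-W4-08 and 9.74 in C2C12-PR, against 23.4, 13.2 and 25 for all detected probes. A signal of 20 or more was reached by 3 members in C2C12-DF, 4 in C2C12-W4-08 and 2 in C2C12-PR, where between 39.2% and 40.0% of all probes on each array reached it. A scanner unit is worth 0.457, 0.431 and 0.413 in signal on the arrays of C2C12-DF, C2C12-W4-08 and C2C12-PR. On each array 16 to 18 of the 40 member spots lay less than 10 scanner units above the blank mean.

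**Figure D1:**
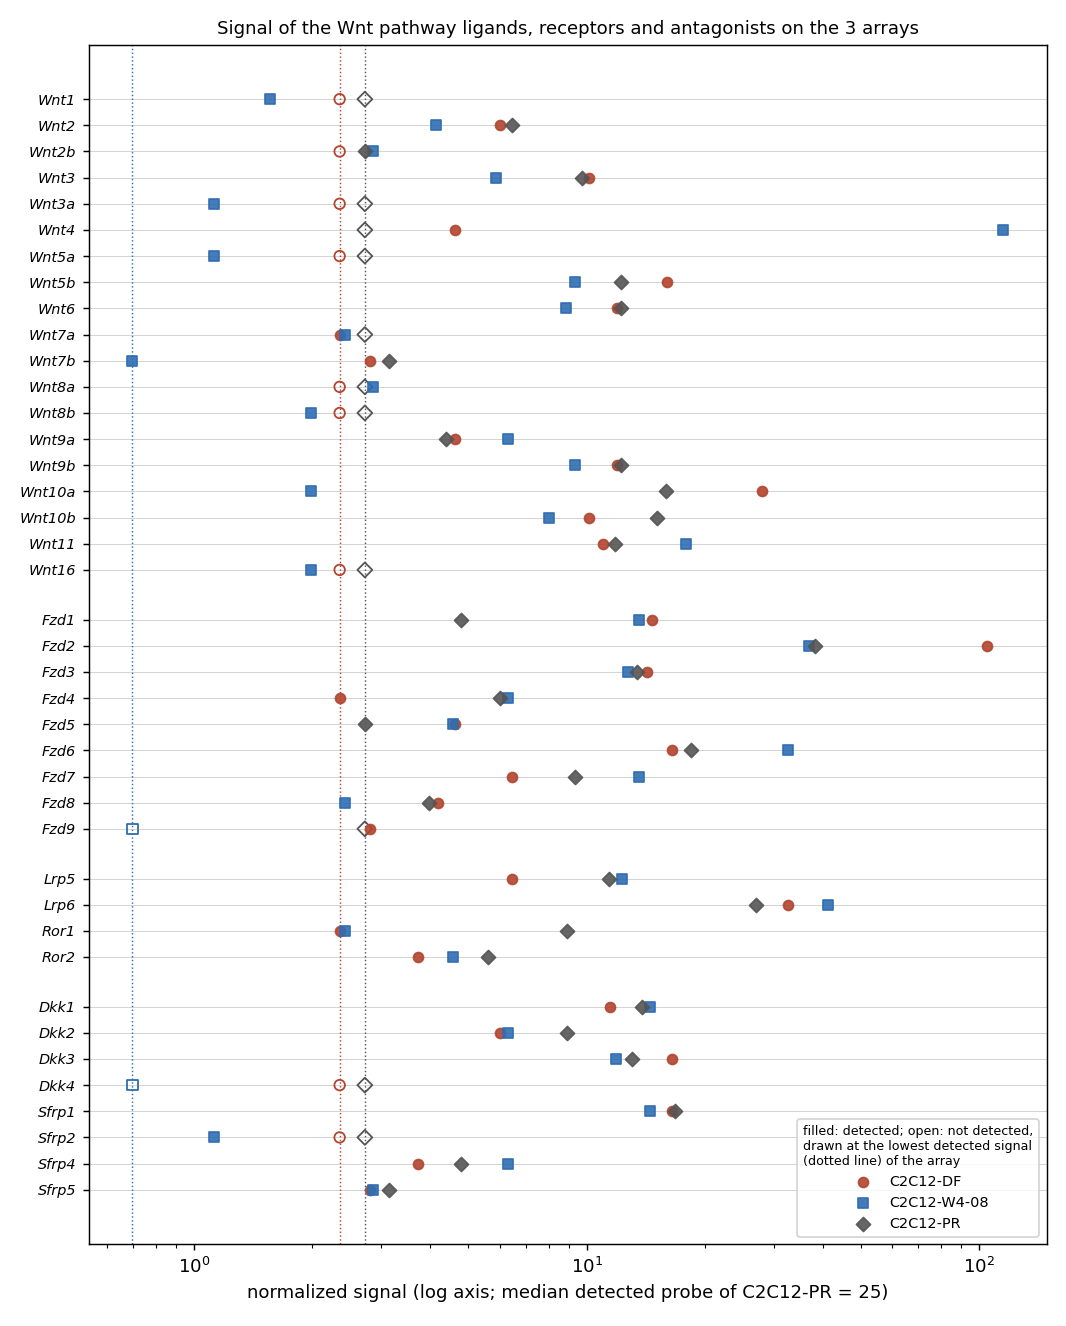
Signal of each of the 40 members on the 3 arrays, grouped by role, on a log axis scaled so that the median detected probe of C2C12-PR is 25. Filled points were detected and open points were not and are drawn at the lowest detected signal of their array (dotted lines), and most members lie below 20 with Wnt4 in C2C12-W4-08 and Fzd2 in C2C12-DF above 100.

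Wnt4 was the check of the subline's label. Its probe gave 4.63 in C2C12-DF, 115 in C2C12-W4-08, and was not detected in C2C12-PR, where the spot read 25 scanner units beside a blank mean of 20.4. The signal in C2C12-W4-08 was at least 42.2-fold higher than in C2C12-PR, and that in C2C12-DF at least 1.70-fold higher. The Wnt4 spot in C2C12-DF read 28 scanner units. The bound in C2C12-DF (log2 0.77) ran under the alternatives from 0.23 with 3 SD detection to 1.68 with local background subtracted. The bound in C2C12-W4-08 stayed above 4-fold under each alternative that gave Wnt4 a ratio (requiring a signal of 20 on both arrays leaves it without), from 2.51 on the log2 scale with a background model that compresses dim spots (normexp with an offset of 50) to 6.61 in the deposited table. Probe sequence was not used here, so transcripts of the plasmid and of the resident gene cannot be told apart.

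Of the 19 ligands, 12 were detected in C2C12-DF, 19 in C2C12-W4-08 and 11 in C2C12-PR, with 10 on all 3 arrays. The ligands beside Wnt4 that crossed the 2-fold mark were Wnt10a and Wnt7b, both lower in C2C12-W4-08. Wnt10a, a ligand of the β-catenin route, had signals of 27.9 in C2C12-DF, 1.99 in C2C12-W4-08 and 15.9 in C2C12-PR. It was 1.75-fold higher in C2C12-DF (log2 0.81) and 8.00-fold lower in C2C12-W4-08 (log2 -3.00). The Wnt10a spot carried local background of 51 and 50 scanner units on the C2C12-DF and C2C12-PR arrays and 5 on the C2C12-W4-08 array. With that local background subtracted the log2 ratio in C2C12-DF was 2.07, and with print block centring 1.05, both past the 2-fold mark. With local background the log2 ratio in C2C12-W4-08 was -0.64, and under normexp it was 0.030, so its direction there depended on the background.

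Wnt7b had signals of 2.81 in C2C12-DF, 0.697 in C2C12-W4-08 and 3.14 in C2C12-PR, that is 4.50-fold lower in C2C12-W4-08 (log2 -2.17). Its spot in C2C12-W4-08 stood exactly at the lowest detected signal, and moving each of its spots by 1 SD of the blanks spread the log2 ratio over -3.63 to -0.88. The ratio was -0.42 with loess scaling and -0.21 under normexp. In C2C12-DF its log2 ratio was -0.16. Wnt10b, whose mouse protein holds back adipogenesis, had signals of 10.1 in C2C12-DF, 8.02 in C2C12-W4-08 and 15.1 in C2C12-PR, log2 ratios of -0.58 and -0.91 to C2C12-PR. Both turned to the other side under normexp (0.13 each) and with local background (0.51 and 0.45), while the ratio in C2C12-W4-08 passed 2-fold with quantile normalization (-1.05), loess (-1.07) and the deposited table scaled to a common median ratio (-1.11).

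The remaining ligands measured on all arrays were Wnt2, Wnt3, Wnt5b, Wnt6, Wnt9a, Wnt9b and Wnt11. Their signals ranged between 4.14 and 17.9, and their log2 ratios lay between -0.10 and 0.39 in C2C12-DF and between -0.73 and 0.60 in C2C12-W4-08. Wnt11, which in vertebrate embryos guides cell movement and the orientation of muscle fibres, had signals of 11.0 in C2C12-DF, 17.9 in C2C12-W4-08 and 11.8 in C2C12-PR (log2 -0.10 and 0.60). Wnt3, a ligand of the β-catenin route, had signals of 10.1 in C2C12-DF, 5.87 in C2C12-W4-08 and 9.74 in C2C12-PR (log2 0.05 and -0.73). Wnt5b had signals of 16.1 in C2C12-DF, 9.31 in C2C12-W4-08 and 12.2 in C2C12-PR (log2 0.39 and -0.39). With local background Wnt5b stood at -0.05 and 0.18 in the same comparisons. Wnt9a, at 0.53 in C2C12-W4-08, stood there at -2.13 with local background and at 1.73 in the deposited table. Wnt2b was detected in C2C12-W4-08 and C2C12-PR at 2.85 and 2.72, and Wnt7a in C2C12-DF and C2C12-W4-08 at 2.35 and 2.42. Wnt1, Wnt3a, Wnt5a, Wnt8a, Wnt8b and Wnt16 were detected in C2C12-W4-08 alone, at 1.13 to 2.85. These ligands include Wnt3a, much used to activate the β-catenin route, and Wnt5a, a ligand of Ror2. Across C2C12-W4-08 and C2C12-PR, 9 members were detected on a single array, and for 7 of them, 6 being ligands, the signal in C2C12-W4-08 was below the lowest signal that the C2C12-PR array could detect, so no ratio was given. Their detection in C2C12-W4-08 alone goes with the lower blanks of that array and gives no difference in level. The median log2 ratio of the ligands detected on both arrays was -0.032 for C2C12-DF and -0.46 for C2C12-W4-08, where 3 lay above 0 and 8 below.

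Among the 9 Frizzled receptors, Fzd1 and Fzd2 were higher in C2C12-DF and Fzd1 in C2C12-W4-08, while Fzd4 was lower in C2C12-DF. The probes covered Fzd1 through Fzd9, and 8 of the 9 were detected on all arrays. Fzd1 had signals of 14.7 in C2C12-DF, 13.6 in C2C12-W4-08 and 4.79 in C2C12-PR. It was 3.07-fold higher in C2C12-DF (log2 1.62, 1.19 to 2.13 when its spots were moved by 1 SD of the blanks) and 2.85-fold higher in C2C12-W4-08 (log2 1.51, 1.14 to 1.97). Both conditions thus stood above C2C12-PR by like amounts, and these comparisons share the C2C12-PR array. Under normexp the log2 ratios were 0.42 and 0.086, and with local background subtracted the ratio in C2C12-W4-08 was 0.28, which ended its 2-fold mark.

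Fzd2, which in mammalian cells can act with and without β-catenin, had signals of 105 in C2C12-DF, 36.9 in C2C12-W4-08 and 38.2 in C2C12-PR. It was 2.74-fold higher in C2C12-DF (log2 1.45, 1.40 to 1.51 over the same shift) and close to C2C12-PR in C2C12-W4-08 (log2 -0.05, -0.11 to 0.01). Its signals stood well above the blank limit on every array, with local background of 61 scanner units in C2C12-DF, 60 in C2C12-W4-08 and 14 in C2C12-PR. Under normexp its ratio in C2C12-DF was 0.94, and its ratio in C2C12-W4-08 lay between -1.19 with local background subtracted and 0.39 in the deposited table. In that table as given, all probes had a median of 0.57 in C2C12-W4-08.

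Fzd4, a receptor of Norrin as well as of Wnts, had signals of 2.35 in C2C12-DF, 6.30 in C2C12-W4-08 and 6.02 in C2C12-PR. It was 2.56-fold lower in C2C12-DF (log2 -1.36), but the spot there stood at the lowest detected signal, and the ratio was 0.10 under normexp and 0.57 with local background subtracted. Its ratio in C2C12-W4-08 was 0.06. Fzd6 had signals of 16.5 in C2C12-DF, 32.6 in C2C12-W4-08 and 18.4 in C2C12-PR, a 1.77-fold higher value in C2C12-W4-08 (log2 0.82, 0.72 to 0.94). It lay past the 2-fold mark with local background (1.23) and in the deposited table (1.36), but not in that table scaled to a common median ratio.

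Fzd3, Fzd5, Fzd7 and Fzd8 had signals of 2.42 to 14.2 and log2 ratios of -0.53 to 0.77 in C2C12-DF and -0.71 to 0.75 in C2C12-W4-08. Fzd7, a receptor of Wnt7a in mouse satellite cells, had signals of 6.46 in C2C12-DF, 13.6 in C2C12-W4-08 and 9.32 in C2C12-PR. Fzd5 had signals of 4.63 in C2C12-DF, 4.57 in C2C12-W4-08 and 2.72 in C2C12-PR, the last at the lowest detected signal (log2 0.77 and 0.75). Fzd8 had signals of 4.18 in C2C12-DF, 2.42 in C2C12-W4-08 and 3.96 in C2C12-PR (log2 0.08 and -0.71). Fzd9 was detected in C2C12-DF alone, at 2.81, a bound of 1.03-fold. The median log2 ratio of the receptors was 0.079 for C2C12-DF and 0.31 for C2C12-W4-08.

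All 4 co-receptors were detected on every array, and Ror1 was lower in both conditions. Ror1, a receptor tyrosine kinase-like protein with a Frizzled-like cysteine-rich domain, had signals of 2.35 in C2C12-DF, 2.42 in C2C12-W4-08 and 8.91 in C2C12-PR. It was 3.79-fold lower in C2C12-DF (log2 -1.92, -2.90 to -1.20) and 3.68-fold lower in C2C12-W4-08 (log2 -1.88, -2.29 to -1.48). Its spot in C2C12-DF stood at the lowest detected signal, and these 2 ratios also share the C2C12-PR array. Under normexp the ratios were -0.10 and -0.14, with local background the ratio in C2C12-DF was -0.57, and in the deposited table the ratio in C2C12-W4-08 was -0.73. With that table scaled to a common median ratio, Ror1 in C2C12-W4-08 stood at -1.30, past the 2-fold mark. Its relative Ror2 had signals of 3.72 in C2C12-DF, 4.57 in C2C12-W4-08 and 5.61 in C2C12-PR, log2 ratios of -0.59 and -0.29.

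Lrp6 had signals of 32.5 in C2C12-DF, 41.2 in C2C12-W4-08 and 27.1 in C2C12-PR. It was 1.52-fold higher in C2C12-W4-08 (log2 0.61, 0.53 to 0.68), and its log2 ratio in C2C12-DF was 0.26. Lrp5 had signals of 6.46 in C2C12-DF, 12.3 in C2C12-W4-08 and 11.4 in C2C12-PR, with log2 ratios of -0.82 and 0.11.

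None of the 8 secreted antagonists reached the 2-fold mark in either comparison as processed here. Of the Sfrp family, Sfrp1 had signals of 16.5 in C2C12-DF, 14.5 in C2C12-W4-08 and 16.7 in C2C12-PR, with log2 ratios of -0.02 and -0.21. Sfrp4 and Sfrp5 had signals of 2.81 to 6.30, and Sfrp2 was detected in C2C12-W4-08 alone, at 1.13. Of the Dkk family, Dkk1 had signals of 11.5 in C2C12-DF, 14.5 in C2C12-W4-08 and 13.9 in C2C12-PR, with log2 ratios of -0.27 and 0.06. Dkk3, a divergent relative of Dkk1, had signals of 16.5 in C2C12-DF, 11.9 in C2C12-W4-08 and 13.0 in C2C12-PR (log2 0.34 and -0.13). Dkk2 and Dkk3 had signals of 6.0 to 16.5 and log2 ratios of -0.57 to 0.34, and Dkk4 was detected on none of the arrays. The median log2 ratio of the antagonists was -0.22 for C2C12-DF and -0.13 for C2C12-W4-08.

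**Figure D2:**
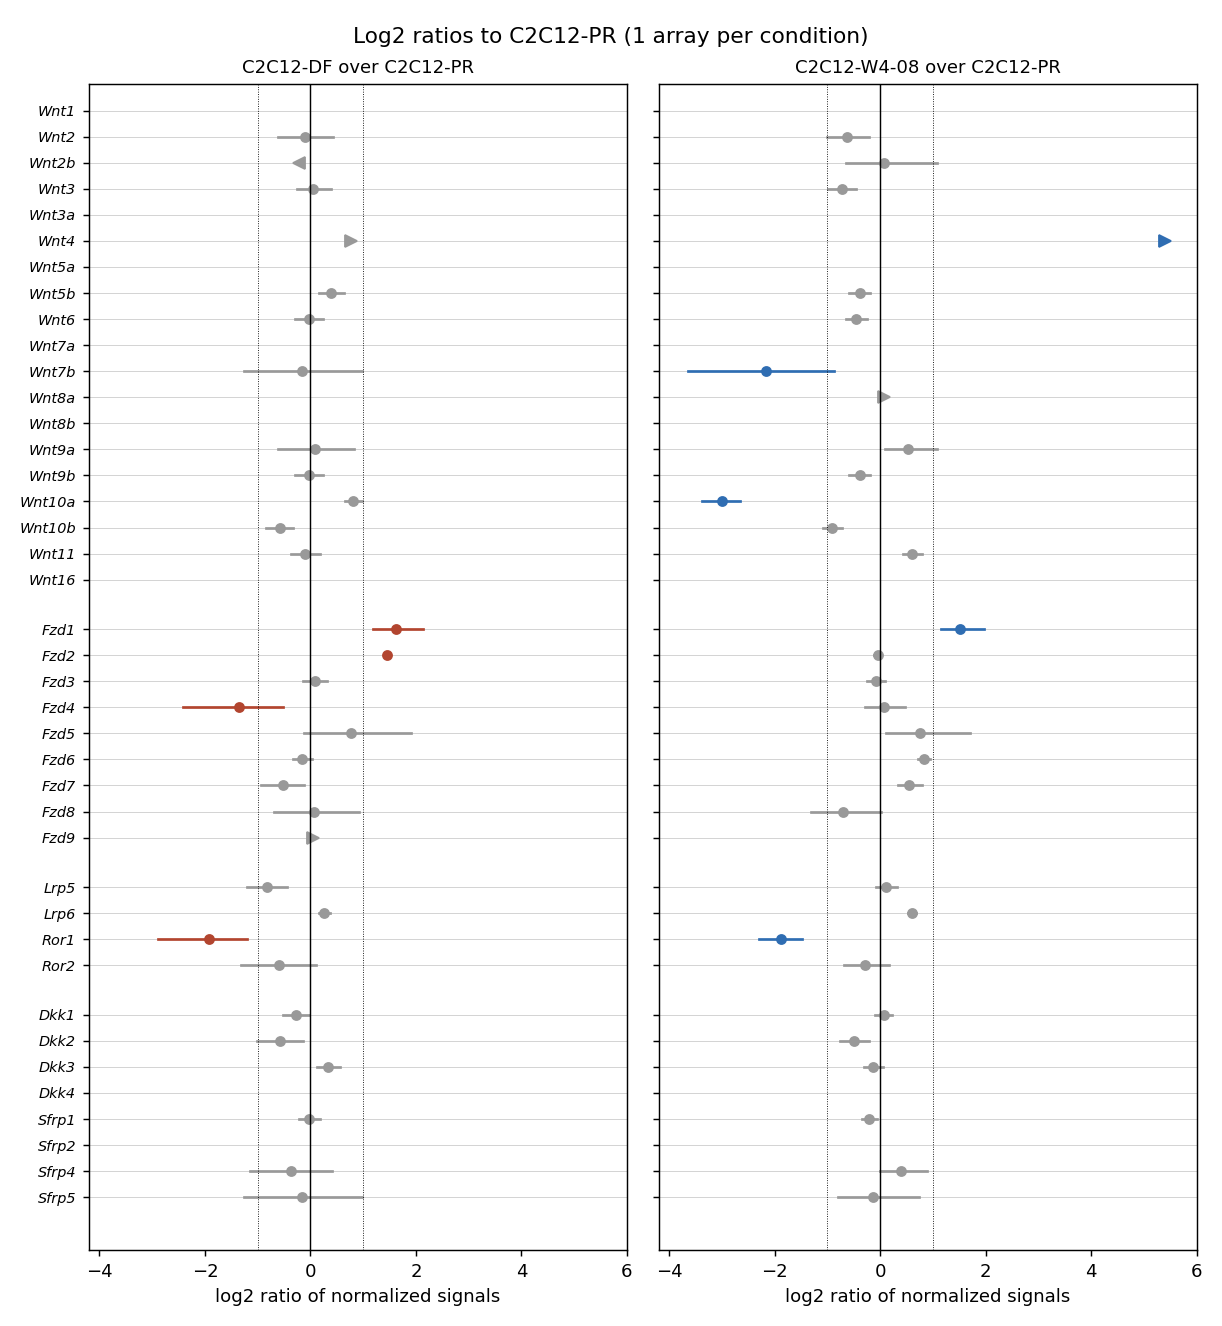
Log2 ratio of each member to C2C12-PR, for C2C12-DF (left) and C2C12-W4-08 (right), with bars for the range when each spot is moved by 1 SD of the blanks, triangles for bounds, and colour for ratios of at least 2-fold. Fzd1, Fzd2, Fzd4 and Ror1 are coloured in C2C12-DF, and Wnt4, Fzd1, Ror1, Wnt10a and Wnt7b in C2C12-W4-08.

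Counted over the members detected on both arrays, 2 of 28 (7.14%) reached the 2-fold mark upward in C2C12-DF, against 4.91% of all probes so compared, and 2 (7.14%) were at least 2-fold lower, against 4.54%. In C2C12-W4-08, 1 of 29 (3.45%) was at least 2-fold higher, against 8.55% of all probes, and 3 (10.3%) were lower, against 11.0%. Wnt4 adds 1 bound to the higher members of C2C12-W4-08, where 7.79% of all probes were higher and 9.20% lower with bounds counted, and no member adds a bound of 2-fold in C2C12-DF, where these shares were 5.07% and 4.48%. Among probes with a C2C12-PR signal within the range of the members, 2.72 to 38.2, the shares were 6.43% higher and 4.17% lower in C2C12-DF, and 11.6% higher and 12.7% lower in C2C12-W4-08. Counts of 1 to 3 among 28 or 29 members lie near these shares.

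The ratios of single members can be set beside those probes of like brightness, whose log2 ratios (5th to 95th percentile) ran over -0.94 to 1.14 for C2C12-DF and over -1.67 to 1.36 for C2C12-W4-08. Fzd1, Fzd2, Fzd4 and Ror1 lay outside that span in C2C12-DF, and Fzd1, Ror1, Wnt10a and Wnt7b, with the bound of Wnt4, in C2C12-W4-08. These are the members already named for passing 2-fold, so the span is no further check of them. By construction it leaves out the 5% of those probes at each end. It pools C2C12-PR signals of 2.72 to 38.2, so dim members such as Wnt7b are set beside brighter probes. The median log2 ratio of the members was -0.065 in C2C12-DF, with 11 above 0 and 17 below, and -0.13 in C2C12-W4-08, with 12 above 0 and 17 below.

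Which members passed the mark depended on the processing. With local background, the members lower in C2C12-DF were Ror2 and Wnt2b in place of Fzd4 and Ror1, and those higher were Fzd1, Fzd2, Fzd5, Fzd9, Wnt10a, Wnt4 and Wnt7a. In C2C12-W4-08 the same setting left Ror1 and Wnt7b lower, with Dkk2, Fzd2, Ror2, Wnt2b, Wnt3 and Wnt9a beside them and without Wnt10a, and had Fzd5, Fzd6 and Wnt4 higher. In the deposited table as given, Sfrp2 and Wnt4 joined the higher members of C2C12-DF. Those of C2C12-W4-08 gained Fzd6, Fzd7, Sfrp4, Wnt11, Wnt2b, Wnt8a, Wnt8b and Wnt9a. The whole array was shifted there: 5364 of 19293 probes were at least 2-fold higher in C2C12-W4-08, with a median log2 ratio of 0.57. After scaling to a common median ratio, Wnt9a alone of the members gained in C2C12-W4-08 was still higher. In C2C12-DF the same scaling kept Wnt4 and dropped Sfrp2.

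**Figure D3:**
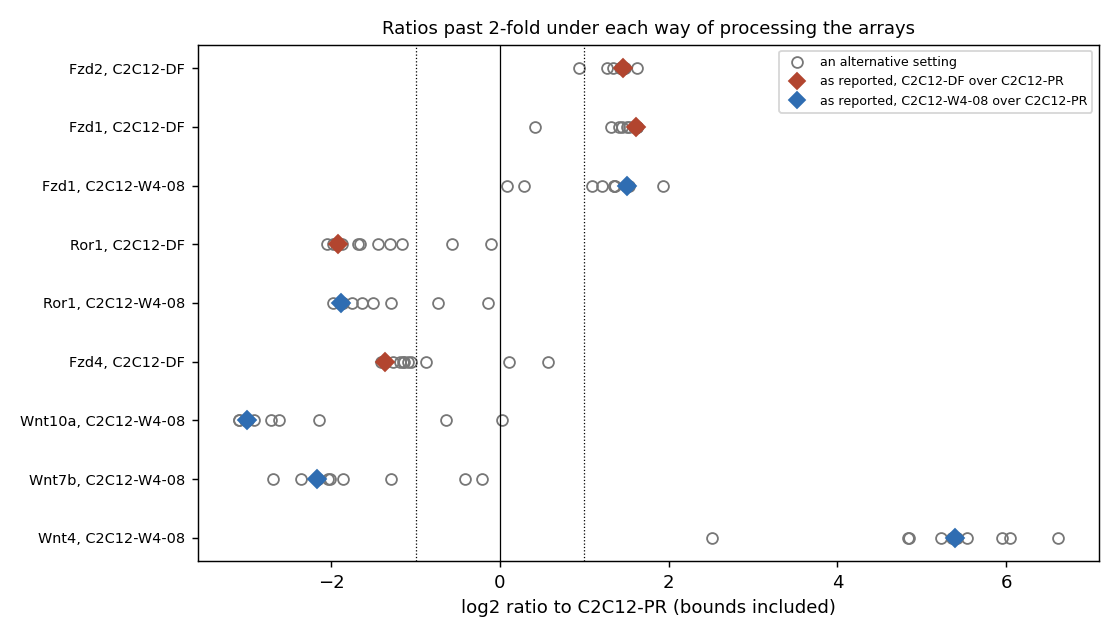
Log2 ratio to C2C12-PR of the members that were at least 2-fold away, in the condition where they were, as reported (diamonds) and under each alternative processing (open circles). Wnt4 in C2C12-W4-08 stays at or above 2.51, Fzd4 in C2C12-DF crosses 0 to 0.57, and Wnt10a in C2C12-W4-08 crosses 0 to 0.030.

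Genes that make, bind or carry the Wnt signal beyond the members were read from lists by role. The counts below are of genes detected on both arrays, for which 4.91% of all probes were at least 2-fold higher and 4.54% lower in C2C12-DF, and 8.55% higher and 11.0% lower in C2C12-W4-08. Genes past the mark with a signal under 20 on each array are named because the counts are small, and were chosen after their values were seen. Of the genes of Wnt release, Porcn, the acyltransferase that lipidates Wnts, had signals of 87.3 in C2C12-DF, 24 in C2C12-W4-08 and 23.3 in C2C12-PR, and was 3.74-fold higher in C2C12-DF (log2 1.90). Its ratio in C2C12-DF lay between 1.18 and 2.16 under the alternatives. Gpr177, the older symbol of Wls, which carries Wnts to the cell surface, had signals of 1106 in C2C12-DF, 700 in C2C12-W4-08 and 874 in C2C12-PR, with log2 ratios of 0.34 and -0.32.

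Of 10 probes for other antagonists and R-spondins, 4 were detected on both arrays of each comparison. Of these, 1 was higher and 0 lower in C2C12-DF, and 2 were higher and 0 lower in C2C12-W4-08. Sost, not detected in C2C12-W4-08, adds 1 lower bound there (log2 -2.35, up to -0.15 under the alternatives). Igfbp4, which binds insulin-like growth factors and hinders Wnt signals, was the gene higher in C2C12-DF (log2 1.37, down to 0.31 under the alternatives) and was higher in C2C12-W4-08 too (1.15, down to 0.24). Rspo3, a secreted protein that strengthens Wnt signals, had signals of 10.6 in C2C12-DF, 22.7 in C2C12-W4-08 and 10.1 in C2C12-PR (log2 0.06 and 1.16, the second down to 0.28 under the alternatives). Of 16 other membrane proteins, 12 were compared, with 1 higher and 0 lower in C2C12-DF and 3 higher and 1 lower in C2C12-W4-08. Lgr5, not detected in C2C12-W4-08, adds 1 lower bound there (log2 -1.97, up to -0.17 under the alternatives). Its C2C12-PR signal was the lowest detected, so the bound is only the ratio of the lowest detected signals of both arrays. Lrp4, which serves as agrin receptor in muscle, had signals of 124 in C2C12-DF, 11.5 in C2C12-W4-08 and 17.6 in C2C12-PR, and was 7.07-fold higher in C2C12-DF (log2 2.82, 1.26 to 3.18 under the alternatives). Lgr6, an R-spondin receptor, had signals of 12.9 in C2C12-DF, 35.2 in C2C12-W4-08 and 13.9 in C2C12-PR (log2 -0.11 and 1.34, the second down to 0.22 under the alternatives). Rnf43 (log2 1.60, down to 0.31) and Kremen2 (1.08, but -1.47 at the lowest) were the other genes higher in C2C12-W4-08. Kremen1, a receptor of Dkk proteins, had signals of 22.9 in C2C12-DF, 6.73 in C2C12-W4-08 and 20.5 in C2C12-PR (log2 0.16 and -1.60, the second up to -0.40 under the alternatives).

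Of 31 probes for the β-catenin route inside the cell, 24 were compared, with 0 higher and 2 lower in C2C12-DF (median log2 -0.070) and 0 higher and 6 lower in C2C12-W4-08 (median -0.22). In the deposited table without further scaling the median in C2C12-W4-08 was 0.38, against 0.57 for all probes. In C2C12-W4-08 Dact2 adds 1 higher bound (log2 1.90, down to 0.34 under the alternatives) and Pygo1 1 lower bound (-1.97, up to -0.17). Pygo1 stood at the lowest detected signal of C2C12-PR, so its bound is only the ratio of the lowest detected signals of both arrays. Ctnnb1, which encodes β-catenin, had signals of 565 in C2C12-DF, 322 in C2C12-W4-08 and 445 in C2C12-PR (log2 0.34 and -0.47). Gsk3a, a kinase that marks β-catenin for destruction, had signals of 11.9 in C2C12-DF, 9.75 in C2C12-W4-08 and 25 in C2C12-PR (log2 -1.07 and -1.36, up to 0.05 and -0.07 under the alternatives). Pygo2, a nuclear partner of β-catenin, was the other gene lower in C2C12-DF (log2 -1.41) and was lower in C2C12-W4-08 (-1.18), with -0.44 at the least in each. Dvl1, which relays the signal of Frizzled, had signals of 71.3 in C2C12-DF, 39.5 in C2C12-W4-08 and 83.6 in C2C12-PR, and was lower in C2C12-W4-08 (log2 -1.08, up to -0.18 under the alternatives). Tle3, a co-repressor of TCF/LEF factors, had signals of 42.5 in C2C12-DF, 29.1 in C2C12-W4-08 and 66.3 in C2C12-PR (log2 -0.64 and -1.19, the second up to -0.50 under the alternatives). Dact1 (log2 -1.96) and Lef1 (-1.19) were the remaining genes lower in C2C12-W4-08, at -0.14 and -0.04 under the alternative nearest to 0.

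Of 24 probes for routes without β-catenin, 22 were compared, with 0 higher and 2 lower in C2C12-DF (median log2 0.10) and 2 higher and 1 lower in C2C12-W4-08 (median -0.040). Prkca, a calcium-dependent protein kinase C, had signals of 22.0 in C2C12-DF, 53.3 in C2C12-W4-08 and 55.1 in C2C12-PR (log2 -1.33 and -0.05, the first up to -0.86 under the alternatives). Map3k7, a kinase upstream of Nlk, was the other gene lower in C2C12-DF (log2 -1.68, up to -0.44). Nfatc3, a calcium-responsive transcription factor, had signals of 26.6 in C2C12-DF, 39.0 in C2C12-W4-08 and 18.8 in C2C12-PR (log2 0.50 and 1.05, the second down to 0.32 under the alternatives). Nfatc1 (log2 1.75, down to 0.29) was also higher in C2C12-W4-08, and Camk2a (-1.44, up to -0.14) was lower.

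Genes that β-catenin is known to induce lay on both sides of C2C12-PR. Of 24 probes, 3 of them members, 17 were compared in C2C12-DF, with 2 higher and 2 lower (median log2 0.022) and 2 more higher and 1 lower as bounds, and 18 in C2C12-W4-08, with 3 higher and 1 lower (median 0.12) and 1 lower as a bound. In the deposited table without further scaling the median in C2C12-W4-08 was 0.77, against 0.57 for all probes. The list shares Porcn, Lgr5, Rnf43, Znrf3, Axin2, Tcf7 and Lef1 with those above. Cd44 is the gene lower in C2C12-DF as a bound (log2 -1.26, up to -0.06 under the alternatives). Axin2, a feedback inhibitor often read as the report of this route, was singled out after its values were seen, and was detected in C2C12-W4-08 alone, at 1.13. That signal is below the lowest detected in C2C12-DF (2.35) and C2C12-PR (2.72), so its detection gives no difference in level. Bmp4 had signals of 55.8 in C2C12-DF, 24.8 in C2C12-W4-08 and 6.44 in C2C12-PR, log2 ratios of 3.12 and 1.95, down to 0.99 and 0.53 under the alternatives. Fst, which encodes the myostatin antagonist follistatin, had signals of 38.9 in C2C12-DF, 5.01 in C2C12-W4-08, and was not detected in C2C12-PR, at least 14.3-fold higher in C2C12-DF (log2 bound 3.84, down to 0.74 under the alternatives). Wisp2 had signals of 29.8 in C2C12-DF, 3.28 in C2C12-W4-08, and was not detected in C2C12-PR, at least 10.9-fold higher in C2C12-DF (log2 bound 3.45, down to 0.80). Snai2, a transcriptional repressor, had signals of 108 in C2C12-DF, 356 in C2C12-W4-08 and 114 in C2C12-PR (log2 -0.08 and 1.64, the second down to 0.90). Myc, which drives growth, had signals of 41.6 in C2C12-DF, 191 in C2C12-W4-08 and 100.1 in C2C12-PR (log2 -1.27 and 0.93, the first up to -0.75). Sox9 had signals of 24.3 in C2C12-DF, 30.9 in C2C12-W4-08 and 49.3 in C2C12-PR (log2 -1.02 and -0.68, the first up to -0.20). Of the list genes named here for a ratio past 2-fold, Porcn and Lrp4 in C2C12-DF kept it under each alternative that was run and gave them a ratio.

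**Figure D4:**
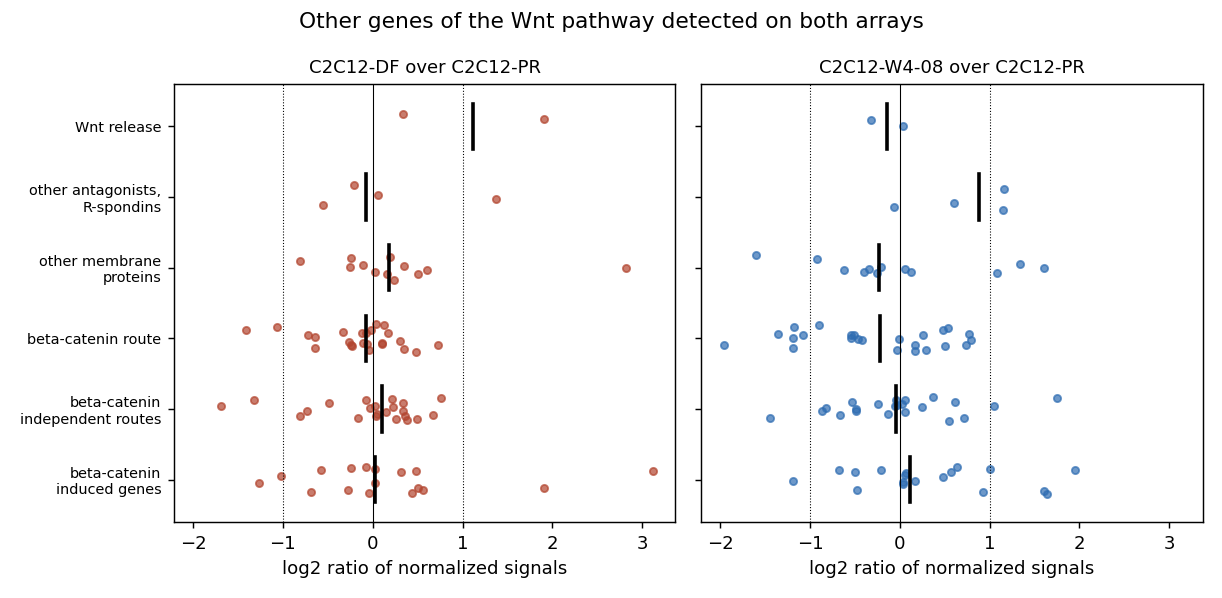
Log2 ratio to C2C12-PR of the genes detected on both arrays in each of 6 lists of the Wnt pathway, for C2C12-DF and C2C12-W4-08, with a point for each gene and a black bar at the median. The list medians lie between -0.23 and 1.12, with 2 genes behind the highest.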

How the data were processed

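Cy5-labelled RNA of 3 cultures was hybridised to Toray 3D-Gene mouse 24K oligonucleotide arrays, 1 per condition and 3 in all. RNA was isolated with Isogen per the study's methods and with the miRNeasy Mini Kit per the labels. The deposited scanner files give the intensity of each spot and of its local background, with nothing subtracted or scaled. The deposited table, made by the authors from the same arrays, gives background-subtracted intensity scaled to a median of 25 for each array, and was used as an alternative. The genome build behind the probes is not given in the sources used here.

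Spot medians had the mean of 1750 blank spots subtracted and were scaled by the median ratio of probes detected on both arrays. One probe printed more than once was averaged. Python 3.11.15 (pandas 2.3.3, numpy 2.4.6) ran the scripts, matplotlib 3.10.9 drew the figures, and quantile, loess and normexp alternatives ran in R 4.3.3 with limma 3.58.1. Scripts were tested on simulated data. Every member is accounted for. Values on all 3 arrays are given for members with a signal of at least 20 on an array or a ratio of at least 2-fold. Other genes are named where they meet both limits, at most 4 in each direction of a list. Also named, outside that rule, were genes past 2-fold with a signal under 20 on each array. Gpr177, Ctnnb1 and Axin2 were named too, though not at least 2-fold away. Further members were given values for their roles. The members and lists were chosen with earlier results of these data known.

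Alternatives were another scaling (quantile, 75th percentile, loess, centring of the 48 print blocks), another background (normexp, local), detection (none, 3 SD, signal of 20 on both arrays), the deposited table, other thresholds (1.5-fold, 4-fold), and each gene name once. Those chosen after seeing the data were the blanks of each print block, detection from the 96 negative control spots and a shift of spots by 1 SD of the blanks. The shift covers the scatter of blank spots and not that between cultures.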

Additional observations from a re-analysis of the deposited data

How the results depend on the processing

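No paired analysis was possible because each condition had 1 array. Of 830 values of members under the alternatives, 700 differed from the reported one by no more than the shift that 1 SD of the blanks gives it (for bounds, by no more than 1 on the log2 scale), and 3 turned a ratio past 2-fold to the other side: Fzd4 in C2C12-DF, log2 0.10 under normexp and 0.57 with local background, and Wnt10a in C2C12-W4-08, 0.030 under normexp. Over ratios measured on both arrays, 76 values took the other sign, in 34 of 57 ratios, those of Fzd4 and Wnt10a among them. In C2C12-DF the 2 members higher became 0 under normexp, 7 with local background, 1 with a signal of 20 required, 4 in the deposited table, 5 at 1.5-fold and 0 at 4-fold. The 2 members lower stayed 2 with local background, but as other genes, and became 0 under normexp, 1 at 3 SD, 0 with a signal of 20, 1 when spots were moved by 1 SD of the blanks (an alternative chosen after seeing the data), 4 at 1.5-fold and 0 at 4-fold. In C2C12-W4-08 the 2 members higher became 1 under normexp, 0 with a signal of 20, 10 in the deposited table, 6 at 1.5-fold and 1 at 4-fold. The 3 members lower became 0 under normexp, 8 with local background, 8 with no detection rule, 0 with a signal of 20, 6 in the deposited table scaled to a common median ratio, 5 with the blanks of each print block (also chosen after seeing the data) and 7 at 1.5-fold. The deposited table as given moved the median of all probes to 0.14 for C2C12-DF and 0.57 for C2C12-W4-08, where 10 members were then higher and 2 lower. Counts over all probes, bounds left out, moved too. Under normexp 265 of 18395 were higher and 230 lower in C2C12-DF, and 337 and 470 of 21960 in C2C12-W4-08. There 2607 of 16511 were lower with local background and 5627 of 23473 with no detection rule, and 5364 of 19293 were higher in the deposited table. The member counts are thus no result about the members alone. The median of the members in C2C12-DF (-0.065) became 0.86 with a signal of 20, 0.15 in the deposited table and 0.014 in that table scaled. The median in C2C12-W4-08 (-0.13) became 0.015 under normexp, 0.28 with a signal of 20 and 0.42 in the deposited table. Requiring a signal of 20 leaves few members. The cause of the other changes was not tested. With 16 to 18 of 40 member spots less than 10 scanner units above the blanks on each array, signal over background limits what their ratios can show.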
